A study of Mus musculus with 15 samples.

Results

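The Hox genes of the developing mouse stomach were taken as every gene symbol made of Hox, a cluster letter from a to d and a number, which selected 39 genes among the 44788 gene symbols with values. Each of the 39 symbols had 1 entry, and expression is given as FPKM, the number of sequenced fragments scaled to transcript length and library size. Whole stomachs of C57BL/6 mice, with no genotype or treatment compared, were sequenced at 15 timepoints. These were daily from E12.5 to E18.5 (E, embryonic day; 7 timepoints), at D1, D3 and D5 (D, postnatal day), and at 1, 2, 3, 6 and 8 weeks of age (written W1 to W8). One library was made per timepoint, so timepoints served as the replicates of 3 developmental phases: Ph1 from E12.5 to E17.5 (6 timepoints), Ph2 from E18.5 to W2 (6 timepoints) and Ph3 from W3 to W8 (3 timepoints). The phases had been drawn from these transcriptomes, so differences across them are not independent of how they were set, and a phase also spans a stretch of the time course. Stomachs up to W2 came from pups of either sex and later ones from males, so sex and age cannot be told apart in Ph3. Per the study's methods, stomachs up to E17.5 were pooled within a replicate and postnatal ones were taken singly, and how replicates entered a library is not given there. In RNA of a whole organ, fewer cells of a type and less RNA per cell cannot be told apart.

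Hox genes encode homeodomain transcription factors that lie in 4 clusters, HoxA to HoxD, and genes at the same place in different clusters form a numbered paralog group. The order of the genes along a cluster matches the order of their expression along the body axis, with low numbers toward the head and high numbers toward the tail. In the gut they are known mainly from the mesenchyme, where they help to give each segment its identity. Their proteins bind DNA together with Pbx, Meis and Pknox cofactors, while Polycomb complexes keep silent members repressed and Trithorax complexes keep active members on.

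In the files, the HoxA genes spanned 105.5 kb of chromosome 6, the HoxB genes 173.9 kb of chromosome 11, the HoxC genes 115.7 kb of chromosome 15 and the HoxD genes 96.8 kb of chromosome 2 (GRCm38). A highest FPKM of at least 1, the limit for testing, was reached by 21 of the 39 genes, against 16902 of the 44788 symbols. The detected genes were a block of each cluster. All 15 genes of paralog groups 4 to 8 passed this limit, as did 6 of the 8 genes of groups 1 to 3 and 0 of the 16 genes of groups 9 to 13. By their highest timepoint, 17 genes reached 10 FPKM or more, 4 lay between 1 and 10, 7 between 0.1 and 1, and 11 below 0.1 FPKM. The border lay between Hoxa7 and Hoxa9, whose highest values were 13.45 and 0.859 FPKM, a 15.7-fold step. In HoxB it lay between Hoxb8 at 21.6 and Hoxb9 at 0.932 FPKM, and in HoxD between Hoxd8 at 3.66 and Hoxd9 at 0.635 FPKM. In HoxC, Hoxc8 reached 12.001 FPKM and Hoxc9 was listed at 0 at every timepoint. The 12 genes of groups 10 to 13, which include Hoxa13 and Hoxd13 of the hindgut and limb tip, were listed at 0 throughout in 8 cases. The others reached at most 0.222 FPKM, the value of Hoxd10 at D1, which rests on about 5.70 fragments. Hoxb1 and Hoxd1, which act in the hindbrain and spinal cord, reached 0.700 and 0.207 FPKM, both at E12.5. None of 10 widely used genes, among them Actb and Gapdh, was listed at 0 in any library.

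**Figure D1:**
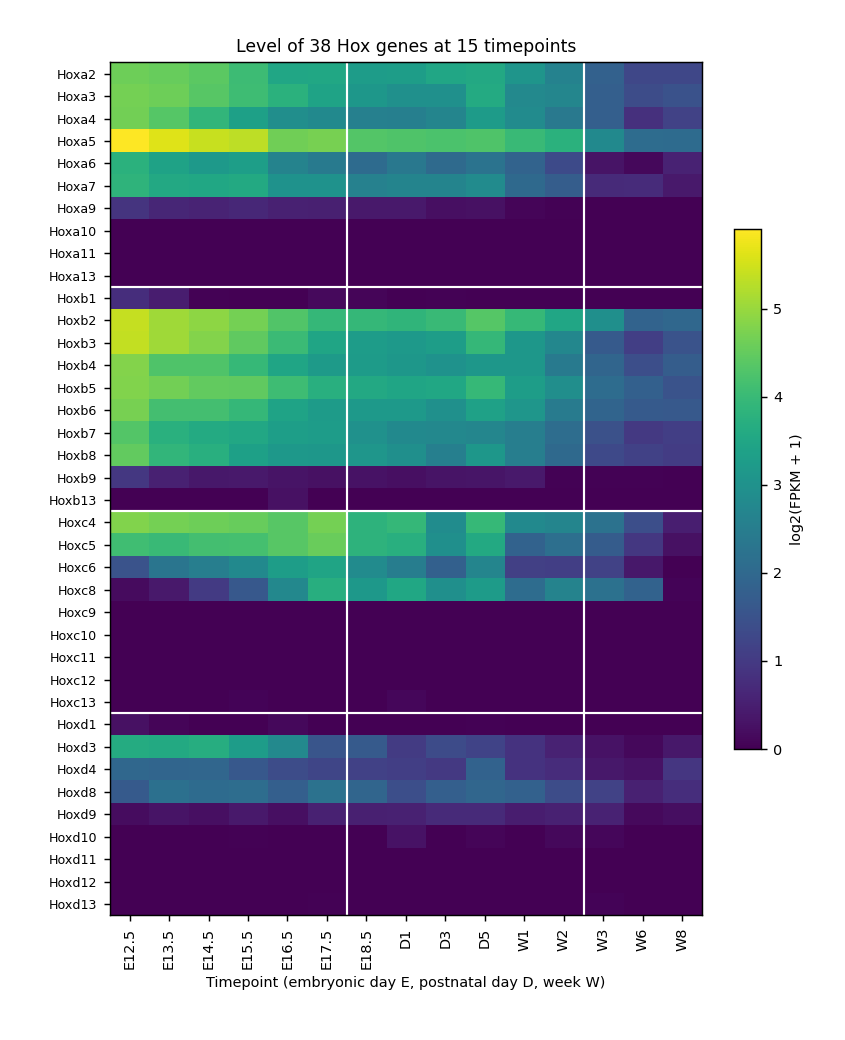
Level of each of 38 Hox genes (rows, by cluster and paralog number) at the 15 timepoints (columns) as log2(FPKM + 1); white lines separate clusters and phases, and each cell is 1 library. Paralog groups 2 to 8 carry the signal, and groups 9 to 13 stay below 1 FPKM. Hoxc5, Hoxc6, Hoxc8 and Hoxd8 are brightest at E17.5 where the HoxA and HoxB genes are brightest at E12.5.

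The DNA before a RefSeq start of 4 HoxA and HoxB genes is shown because they stand on both sides of this border: Hoxa5, which had the highest level of all members, Hoxb8, the last detected gene of HoxB, Hoxa9, a trace, and Hoxa13, listed at 0. Each is the 250 bases before a transcription start in RefSeq (GRCm38.p6), written 5′ to 3′ on the strand of the gene, with CG dinucleotides, the sites of DNA methylation, in capitals. The Hoxa5 window is chr6:52204588-52204837 (minus strand), that of Hoxb8 chr11:96281655-96281904 (plus strand), that of Hoxa9 chr6:52227371-52227620 and that of Hoxa13 chr6:52260881-52261130 (both minus strand). The measured Hoxb8 entry spans chr11:96280769-96285325, so the Hoxb8 window lies inside that entry rather than upstream of it.
Hoxa5: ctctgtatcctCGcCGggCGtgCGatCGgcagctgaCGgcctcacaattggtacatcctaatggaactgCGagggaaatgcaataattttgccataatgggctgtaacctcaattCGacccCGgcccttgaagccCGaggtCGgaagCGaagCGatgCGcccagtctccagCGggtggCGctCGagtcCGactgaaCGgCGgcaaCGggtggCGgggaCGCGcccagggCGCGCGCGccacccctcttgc
Hoxb8: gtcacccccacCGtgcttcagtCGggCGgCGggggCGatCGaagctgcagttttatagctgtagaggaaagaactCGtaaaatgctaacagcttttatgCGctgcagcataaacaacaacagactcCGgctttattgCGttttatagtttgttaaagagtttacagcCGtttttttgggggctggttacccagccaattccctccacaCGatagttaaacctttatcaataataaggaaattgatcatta
Hoxa9: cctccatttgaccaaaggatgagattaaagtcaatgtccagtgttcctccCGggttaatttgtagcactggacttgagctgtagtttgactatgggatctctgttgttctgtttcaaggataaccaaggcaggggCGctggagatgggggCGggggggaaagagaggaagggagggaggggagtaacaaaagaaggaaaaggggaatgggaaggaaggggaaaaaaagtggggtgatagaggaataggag
Hoxa13: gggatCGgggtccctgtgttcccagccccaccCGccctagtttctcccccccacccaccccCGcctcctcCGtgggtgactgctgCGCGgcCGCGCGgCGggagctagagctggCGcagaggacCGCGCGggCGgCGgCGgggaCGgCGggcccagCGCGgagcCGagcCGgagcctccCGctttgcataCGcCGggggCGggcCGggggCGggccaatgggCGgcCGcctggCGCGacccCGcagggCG

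These 4 windows hold 28, 12, 3 and 35 CG dinucleotides, so the silent Hoxa13 has the most and the trace Hoxa9 the fewest. RefSeq windows of 300 bases (250 before and 50 after the start) were at hand for 22 of the 39 members, 24 windows in all. The 11 windows of detected members held a median of 13 CG dinucleotides (range 4 to 29), the 13 windows of the other members 20 (range 4 to 45), and all 32851 windows 7.0. CG content thus overlapped between detected and other members, and both medians lay above that of all promoters. The letters TGATTNAT, one form of the joint Hox and Pbx motif, were found on either strand in 1 of the 11 and 1 of the 13 windows, against 3.22% of all windows. The Meis core TGACAG was found in 2 of 11 and 0 of 13 windows, against 19.2% of all windows.

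The summed FPKM over all symbols ranged from 745538 to 1344960, and the 10 highest genes took from 11.2% of it at E14.5 to 53.2% at W6. The log2 fold change of the median gene was -0.22 from Ph1 to Ph2 and -0.43 from Ph2 to Ph3, and median-ratio scaling, which divides each library by its median ratio to the geometric mean of the libraries, gave 0.00 and -0.02. Of 4 liver markers, 2 stood out at D1, with Alb at 461 and Afp at 186 FPKM, and at W3, with Alb at 65.4 FPKM, where Alb was at most 25.8 FPKM in the other libraries. The other 2 of the 4 liver markers, Apoa1 and Ttr, were at 399 and 104 FPKM at D1 and 2269.8 and 125 at W6, so that the sum of the list was highest at W6, where Alb was at 0.869 FPKM. The stomach factor Barx1 was at 37.3 FPKM or more in every library. All 9 markers of the squamous epithelium that lines the mouse forestomach were lowest at W8, each from 2.73-fold to 111-fold lower than at W6. Tlx1, a marker of the spleen primordium, was at 13.53 FPKM at E12.5 and 4.04 FPKM at E13.5.

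The Hox genes fell as a group over the whole series. Their summed level was 425 FPKM at E12.5, 317 at E14.5, 210.3 at E17.5, 157 at D1, 187 at D5, 88.7 at W2, 48.7 at W3 and 24.5 at W8, 17.4-fold lower at the last than at the first timepoint. By phase the sum was 299.9 ± 82.1 FPKM in Ph1 (SD, n = 6), 141 ± 35.2 in Ph2 (n = 6) and 33.3 ± 13.4 in Ph3 (n = 3), and the 3 ranges did not overlap. After median-ratio scaling the sum fell 9.29-fold from E12.5 to W8. D5 stood above its neighbours, at 187 FPKM against 136 at D3 and 115 at W1. The number of members at 1 FPKM or more was 20 or 21 at the 6 timepoints of Ph1, and 11 at W6 and at W8.

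The makeup of the sum by broad range of paralog number moved less than its size. Groups 4 to 8 held 68.3% ± 4.82 (SD, n = 6) of it in Ph1, 69.7% ± 3.08 (n = 6) in Ph2 and 69.3% ± 3.97 (n = 3) in Ph3. Groups 1 to 3 held 31.2% ± 4.89, 29.7% ± 3.09 and 29.9% ± 3.92, and groups 9 to 13 at most 1.28% at any timepoint. These phase means lay within 1 SD of each other for groups 1 to 3 and for groups 4 to 8. Some single groups moved more. Group 8 held 6.60% ± 2.37 of the sum in Ph1, 10.7% ± 0.98 in Ph2 and 12.2% ± 4.45 in Ph3. Group 3 held 16.3% ± 3.21, 12.4% ± 1.41 and 12.2% ± 3.34 in the same order. Groups 9 to 13 held 0.436% ± 0.087, 0.686% ± 0.089 and 0.825% ± 0.399. Group 5 was the largest single group, with 21.3% to 28.3% of the sum, and Hoxa5 was the highest gene at all but D5 and W3, where Hoxb2 was higher, of the 15 timepoints. By cluster, HoxC rose from 10.5% of the sum at E12.5 to 32.8% at E17.5 and was at 20.8% at W6 and 2.71% at W8. HoxA held 29.5% to 39.1%, HoxB 33.4% to 54.0% and HoxD 2.91% to 8.44% over the 15 timepoints.

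**Figure D2:**
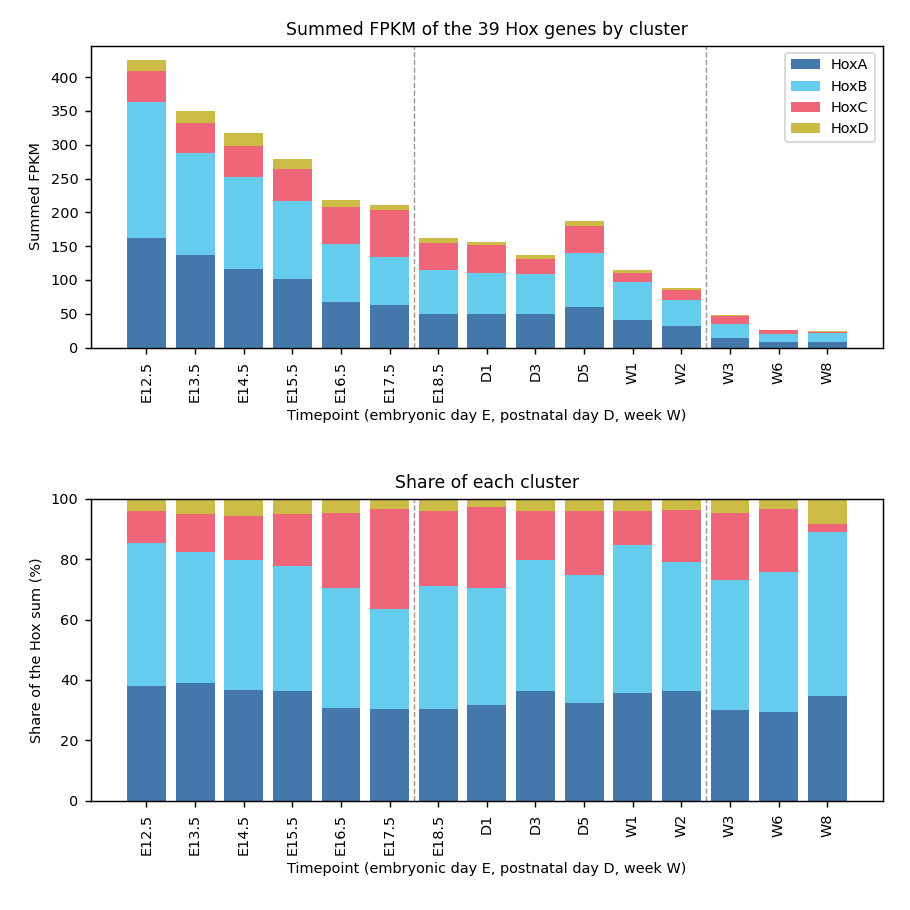
Summed FPKM of the 39 Hox genes by cluster (upper plot, bars from 0) and the share of each cluster in that sum in percent (lower plot) at each timepoint, 1 library each; dashed lines mark the phase borders. The sum falls from 425 to 24.5 FPKM, and the HoxC share peaks at 32.8% at E17.5 and is smallest at W8.

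The comparison of phases asks which members changed between the fetal Ph1, the perinatal and suckling Ph2, which includes fetal E18.5, and the weaned Ph3. It used limma on log2(FPKM + 1) and adjusted p-values by Benjamini and Hochberg across the 16902 tested genes, calling those under 0.01. Of the 21 tested members, 20 differed across the 3 phases, Hoxc8 being the exception (adjusted p = 0.0544), where 70.8% of all tested genes did. From Ph1 to Ph2, 14 of 21 fell (35.1% of all tested genes) and 0 rose (13.2%), and at an unadjusted p under 0.05 1 member, Hoxc8, was higher in Ph2. From Ph2 to Ph3, 16 of 21 fell (37.4% of all tested genes) and 0 rose (3.41%), also at an unadjusted p under 0.05. After birth, 19 of 21 were lower than before it (41.0% of all tested genes) and 0 were higher (11.3%), again also at an unadjusted p under 0.05, and those called lower did not include Hoxc8. The median log2 fold change of the members was -0.95 from Ph1 to Ph2 and -1.54 from Ph2 to Ph3, which is -0.72 and -1.11 relative to the median gene. All members but Hoxc8 lay below the median gene in the first comparison, and all 21 in the second, with and without median-ratio scaling. After that scaling, 10 of 21 fell from Ph1 to Ph2 and 13 of 21 from Ph2 to Ph3, when 18.7% of all genes were called lower and 20.03% higher in the first comparison, and 10.2% lower and 15.3% higher in the second. The calls lost were those of Hoxa2, Hoxb6, Hoxb8 and Hoxc5 in the first and of Hoxa4, Hoxb4 and Hoxb6 in the second. With the same scaling, 13 of 21 members were lower after birth, when 20.7% of all genes were called lower and 21.5% higher. Hoxa2, Hoxa4, Hoxb2, Hoxc6, Hoxd4 and Hoxd8 lost that call. Without D1 and W3, 14 fell from Ph1 to Ph2 (33.1% of all tested genes), 16 from Ph2 to Ph3 (33.3%), and 15 were lower after birth (37.3%). Leaving out D1, W3 and W8 leaves W6 alone in Ph3, so only median log2 fold changes are given for the phases. They were -0.96 from Ph1 to Ph2 and -1.64 from Ph2 to Ph3. In that setting 10 members were lower after birth (29.4% of all tested genes).

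Cell type markers changed over the same timepoints. Their counts stand beside those of all tested genes, of which 35.1% fell and 13.2% rose from Ph1 to Ph2. From Ph2 to Ph3, 37.4% of all tested genes fell and 3.41% rose. Barx1, the transcription factor of the stomach mesenchyme, was at 472 FPKM at E12.5, 150.3 at E17.5, 103 at W2 and 37.6 at W8, and the ratio of the summed HoxA and HoxB level to it was 0.770, 0.890, 0.678 and 0.579. Over all 15 timepoints this ratio ranged from 0.366 at W3 to 0.890 at E17.5. Of the 5 mesenchyme markers, 1 fell from Ph1 to Ph2 and 4 from Ph2 to Ph3, with a summed level of 1955 to 2789 FPKM in Ph1, 1280.4 to 3263 in Ph2 and 228 to 1174 in Ph3. All 4 enteric neuron markers fell in both comparisons, their sum being 46.6 to 119.7 FPKM in Ph1 and 8.11 to 13.8 in Ph3. Of the 8 gastric epithelial markers, 2 rose and 1 fell from Ph1 to Ph2 and 3 rose and 1 fell from Ph2 to Ph3, with a summed level of 222 to 662 FPKM in Ph1 and 21761 to 34152 in Ph3. Of 4 smooth muscle markers 2 rose from Ph1 to Ph2 and 1 fell from Ph2 to Ph3, and of 2 endothelial markers 1 and then 2 fell. The part of the makeup of the organ in the Hox differences was not tested.

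**Figure D3:**
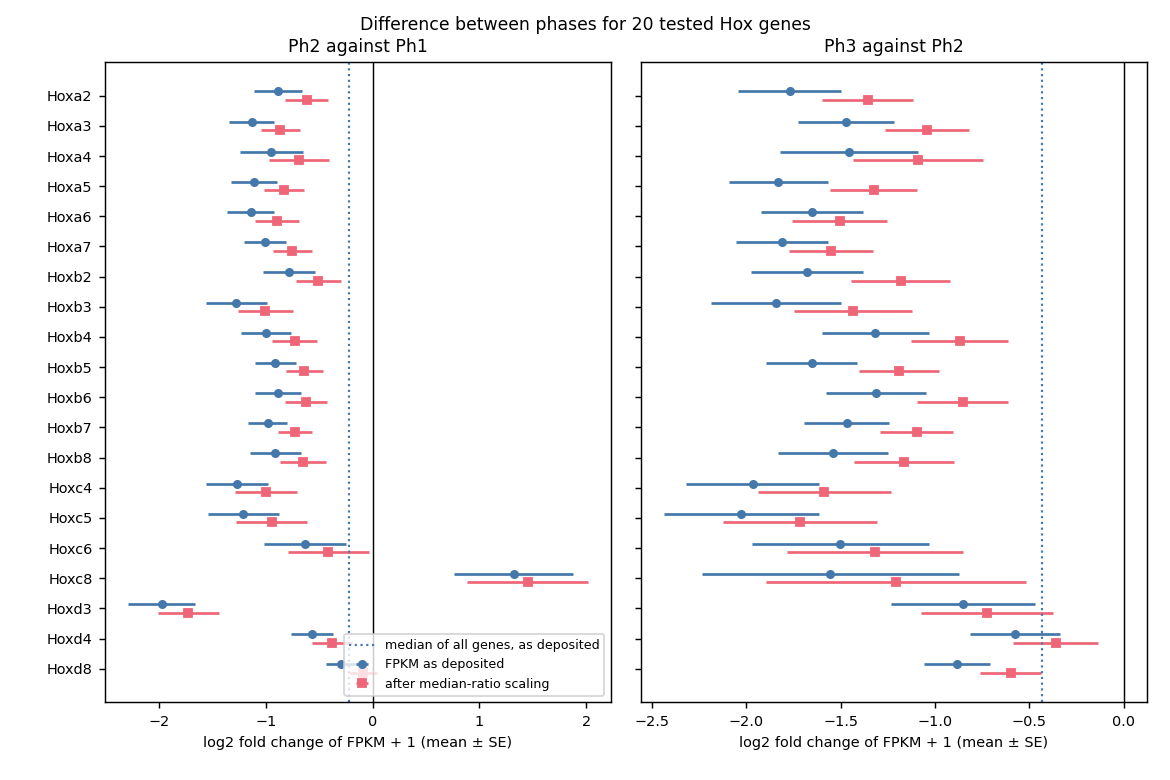
log2 fold change of FPKM + 1 of 20 tested Hox genes from Ph1 to Ph2 (left) and from Ph2 to Ph3 (right); points are limma estimates with bars of 1 standard error, from the deposited FPKM (blue circles) and after median-ratio scaling (red squares), and the dotted line is the median of all 16902 genes. Hoxc8 alone lies right of 0 in the left plot, and all 20 genes lie left of 0 in the right plot on both scales.

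In HoxA, Hoxa2 to Hoxa7 were highest at E12.5 in every case. Hoxa5, which patterns the mesenchyme of lung and stomach, was the highest member. Hoxa5 was at 59.1, 48.2, 41.3, 38.7, 23.7 and 24.8 FPKM from E12.5 to E17.5, at 19.0, 18.3, 17.9, 18.47, 15.1 and 12.6 FPKM from E18.5 to W2, and at 6.01, 3.25 and 3.17 FPKM at W3, W6 and W8. Every Ph1 value was above every Ph2 value, and every Ph2 value above every Ph3 value, with log2 fold changes of -1.11 ± 0.21 (adjusted p = 6.09e-04) and -1.83 ± 0.26 (adjusted p = 1.56e-04). Across the 21 members, Ph1 lay wholly above Ph2 in 6 genes (21.9% of all tested genes) and Ph2 wholly above Ph3 in 18 (44.7%). For genes without overlap, an exact two-sided permutation test always gives p = 0.0022 and p = 0.024. These are the smallest values that 6 against 6 and 6 against 3 timepoints allow, so they add nothing to the lack of overlap. The phases are consecutive stretches of time, so any steady fall also parts them. Of group 3, Hoxa3 takes part in the making of thymus and thyroid. Hoxa3 was at 24.3, 23.5, 19.7, 15.8, 12.6 and 9.81 FPKM from E12.5 to E17.5, at 7.75, 6.78, 6.75, 11.1, 5.87 and 5.57 FPKM from E18.5 to W2, and at 2.45, 1.61 and 1.80 FPKM at W3, W6 and W8. It fell in both comparisons, by log2 fold changes of -1.13 ± 0.21 (adjusted p = 4.48e-04) and -1.47 ± 0.26 (adjusted p = 4.39e-04), and D5 was its highest timepoint within Ph2. Hoxa2, needed in the second pharyngeal arch, was nearly level from E16.5 to D5. Hoxa2 was at 23.4, 22.2, 20.3, 15.6, 10.3 and 10.5 FPKM from E12.5 to E17.5, at 8.67, 8.72, 10.4, 10.8, 7.40 and 5.13 FPKM from E18.5 to W2, and at 2.54, 1.40 and 1.38 FPKM at W3, W6 and W8. Its log2 fold changes were -0.88 ± 0.22 (adjusted p = 0.00337) and -1.77 ± 0.27 (adjusted p = 2.27e-04). Hoxa4 was at 24.1, 19.3, 13.9, 9.34, 6.51 and 5.99 FPKM from E12.5 to E17.5, at 4.91, 4.85, 5.47, 8.49, 6.24 and 4.25 FPKM from E18.5 to W2, and at 2.46, 0.772 and 1.25 FPKM at W3, W6 and W8. Hoxa4, an axial patterning gene, declined through Ph1, and its fold change to Ph2, -0.95 ± 0.30 (adjusted p = 0.0130), missed the threshold, while that to Ph3 was -1.46 ± 0.37 (adjusted p = 0.00404) and missed it after median-ratio scaling, after quantile normalization, without W6 and without W8. Hoxa7 was at 13.45, 10.9, 10.5, 11.1, 7.03 and 7.11 FPKM from E12.5 to E17.5, at 5.01, 5.38, 5.34, 6.23, 3.08 and 2.33 FPKM from E18.5 to W2, and at 0.627, 0.653 and 0.333 FPKM at W3, W6 and W8. Hoxa7 was nearly level from E13.5 to E15.5 and Ph1 lay wholly above Ph2, with log2 fold changes of -1.005 ± 0.20 (adjusted p = 7.03e-04) and -1.81 ± 0.24 (adjusted p = 1.17e-04). Hoxa6 was at 12.8, 9.52, 8.21, 8.93, 5.22 and 4.39 FPKM from E12.5 to E17.5, at 3.18, 4.14, 3.12, 3.76, 2.67 and 1.51 FPKM from E18.5 to W2, and at 0.240, 0.0932 and 0.480 FPKM at W3, W6 and W8. Hoxa6 followed Hoxa7, with -1.14 ± 0.22 (adjusted p = 6.29e-04) and -1.65 ± 0.27 (adjusted p = 3.22e-04), but its W8 value rests on about 5.0 fragments and that at W6 on about 1.0. Hoxa9, below the limit for testing, went from 0.859 FPKM at E12.5 to 0.325 at D1 and 0.0167 at W2.

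**Figure D4:**
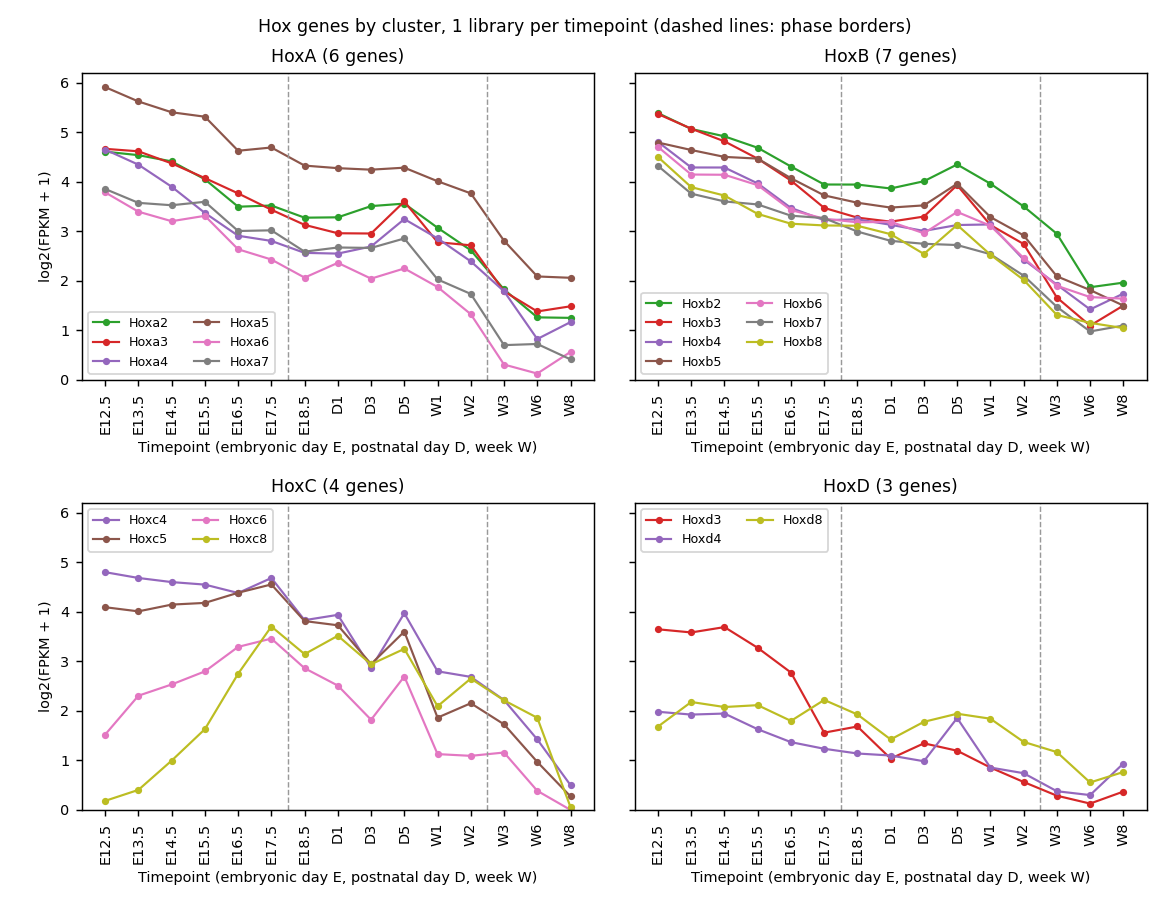
log2(FPKM + 1) of 20 tested Hox genes at the 15 timepoints, 1 plot per cluster, with 1 color per paralog number and 1 library per point; dashed lines mark the phase borders. HoxA and HoxB genes fall from E12.5 on, Hoxc6 and Hoxc8 rise to E17.5 before they fall, and all 4 HoxC genes are near 0 at W8.

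HoxB was represented by Hoxb2 to Hoxb8, also highest at E12.5 without exception, and all 7 fell from Ph2 to Ph3. Of these 7 calls, those of Hoxb4 and Hoxb6 were lost after median-ratio scaling, those of Hoxb4, Hoxb6 and Hoxb8 after quantile normalization, and that of Hoxb4 without W6. Hoxb2, a hindbrain regulator, had the highest level of the cluster at E12.5. Hoxb2 was at 40.8, 32.5, 29.2, 24.7, 18.8 and 14.4 FPKM from E12.5 to E17.5, at 14.4, 13.6, 15.1, 19.4, 14.6 and 10.3 FPKM from E18.5 to W2, and at 6.72, 2.66 and 2.90 FPKM at W3, W6 and W8. Its fold change to Ph2, -0.78 ± 0.24 (adjusted p = 0.0119), missed the threshold, and that to Ph3 was -1.68 ± 0.30 (adjusted p = 4.87e-04). Hoxb3 was at 40.2, 32.6, 27.1, 21.1, 15.3 and 10.1 FPKM from E12.5 to E17.5, at 8.68, 8.15, 8.83, 14.3, 7.73 and 5.70 FPKM from E18.5 to W2, and at 2.17, 1.14 and 1.83 FPKM at W3, W6 and W8. Hoxb3 had log2 fold changes of -1.27 ± 0.28 (adjusted p = 0.00146) and -1.84 ± 0.35 (adjusted p = 6.57e-04), with D5 apart from the other timepoints of Ph2. Hoxb4 is known from blood stem cells. Hoxb4 was at 26.9, 18.53, 18.52, 14.6, 10.1 and 8.34 FPKM from E12.5 to E17.5, at 8.46, 7.76, 7.04, 7.73, 7.80 and 4.39 FPKM from E18.5 to W2, and at 2.79, 1.68 and 2.34 FPKM at W3, W6 and W8. From E17.5 to W1 it stayed between 7.04 and 8.46 FPKM, and its log2 fold changes were -0.99 ± 0.23 (adjusted p = 0.00211) and -1.32 ± 0.29 (adjusted p = 0.00161). Hoxb5 was at 26.7, 23.9, 21.6, 21.1, 15.8 and 12.2 FPKM from E12.5 to E17.5, at 10.9, 10.1, 10.5, 14.6, 8.76 and 6.55 FPKM from E18.5 to W2, and at 3.26, 2.52 and 1.83 FPKM at W3, W6 and W8. Hoxb5, a regulator of enteric neural crest migration, had log2 fold changes of -0.91 ± 0.20 (adjusted p = 0.00122) and -1.65 ± 0.24 (adjusted p = 1.63e-04). Hoxb6 was at 25.03, 16.7, 16.6, 14.2, 9.76 and 8.54 FPKM from E12.5 to E17.5, at 8.06, 8.14, 6.78, 9.48, 7.64 and 4.51 FPKM from E18.5 to W2, and at 2.73, 2.19 and 2.12 FPKM at W3, W6 and W8. Hoxb6 followed with -0.88 ± 0.22 (adjusted p = 0.00288) and -1.31 ± 0.27 (adjusted p = 0.00107), and its W6 and W8 values were nearly equal. Hoxb7 was at 18.9, 12.54, 11.1, 10.6, 8.95 and 8.62 FPKM from E12.5 to E17.5, at 6.97, 5.997, 5.71, 5.60, 4.81 and 3.30 FPKM from E18.5 to W2, and at 1.78, 0.970 and 1.14 FPKM at W3, W6 and W8. Hoxb7 was the member of this cluster whose Ph1 values all lay above those of Ph2, with -0.98 ± 0.18 (adjusted p = 4.64e-04) and -1.47 ± 0.22 (adjusted p = 2.12e-04). Hoxb8 was at 21.6, 13.8, 12.2, 9.20, 7.89 and 7.68 FPKM from E12.5 to E17.5, at 7.64, 6.68, 4.82, 7.74, 4.77 and 3.05 FPKM from E18.5 to W2, and at 1.48, 1.22 and 1.06 FPKM at W3, W6 and W8. Hoxb8, the last detected gene of the cluster, had log2 fold changes of -0.91 ± 0.24 (adjusted p = 0.00427) and -1.54 ± 0.29 (adjusted p = 6.96e-04). The first call was lost after median-ratio scaling, after quantile normalization, and in each fit without E13.5, D3, W1 or W2. Hoxb9, beyond Hoxb8, went from 0.932 FPKM at E12.5 to 0.324 at W1 and 0.0192 at W2. From W6 to W8, 8 of the 14 tested HoxA and HoxB genes were higher and 6 lower, with a median ratio of 1.07.

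Within HoxC, Hoxc4 was highest at E12.5, like the HoxA and HoxB genes, and Hoxc5, Hoxc6 and Hoxc8 at E17.5. The 4 detected genes, Hoxc4, Hoxc5, Hoxc6 and Hoxc8, lie in this order along the cluster, and the higher the number, the lower the level at E12.5. Hoxc4 was at 26.8, 24.6, 23.2, 22.4, 19.8 and 24.6 FPKM from E12.5 to E17.5, at 13.2, 14.3, 6.29, 14.7, 5.95 and 5.43 FPKM from E18.5 to W2, and at 3.65, 1.68 and 0.414 FPKM at W3, W6 and W8. Hoxc4 changed little within Ph1, then fell, with log2 fold changes of -1.27 ± 0.29 (adjusted p = 0.00173) and -1.97 ± 0.35 (adjusted p = 5.18e-04). Hoxc5 was at 16.03, 15.1, 16.7, 17.1, 19.9 and 22.4 FPKM from E12.5 to E17.5, at 13.03, 12.2, 6.69, 11.1, 2.63 and 3.45 FPKM from E18.5 to W2, and at 2.31, 0.957 and 0.208 FPKM at W3, W6 and W8. Hoxc5 was 1.40-fold higher at E17.5 than at E12.5 (95% counting interval 1.27 to 1.54). Its log2 fold changes were -1.21 ± 0.34 (adjusted p = 0.00608) and -2.03 ± 0.41 (adjusted p = 0.00107). The first missed the threshold in 8 of the 15 fits that left out 1 timepoint and after median-ratio scaling (adjusted p = 0.0262). Hoxc6 was at 1.87, 3.94, 4.78, 5.94, 8.78 and 9.99 FPKM from E12.5 to E17.5, at 6.26, 4.69, 2.53, 5.46, 1.18 and 1.13 FPKM from E18.5 to W2, and at 1.23, 0.306 and 0 FPKM at W3, W6 and W8. Hoxc6, active in the thoracic trunk and mammary gland, was 5.35-fold higher at E17.5 than at E12.5 (95% counting interval 3.94 to 7.54). Its Ph1 and Ph2 values overlapped, and neither contrast passed the threshold, with -0.63 ± 0.38 (adjusted p = 0.159) and -1.50 ± 0.47 (adjusted p = 0.0135). Hoxc8 was at 0.135, 0.323, 0.992, 2.09, 5.72 and 12.001 FPKM from E12.5 to E17.5, at 7.84, 10.4, 6.67, 8.51, 3.26 and 5.28 FPKM from E18.5 to W2, and at 3.63, 2.63 and 0.0406 FPKM at W3, W6 and W8. Hoxc8, a gene of the brachial spinal cord and thoracic skeleton, was 89.0-fold higher at E17.5 than at E12.5 (95% counting interval 40.6 to 244; about 6.0 fragments at E12.5). Its log2 fold change from Ph1 to Ph2, 1.32 ± 0.56 (adjusted p = 0.0497), was the only positive one among the members and missed the threshold. So did that to Ph3, -1.56 ± 0.68 (adjusted p = 0.0618). The library of E17.5 decided the first: without it the value was 1.74 (adjusted p = 0.00511), and with E17.5 placed in Ph2 Hoxc8 also passed the threshold.

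At W8 the cluster parted from the others. From W6 to W8 the HoxC sum went from 5.57 to 0.663 FPKM, while HoxA went from 7.90 to 8.53, HoxB from 12.4 to 13.2 and HoxD from 0.901 to 2.07 FPKM. Hoxc8 was at 2.63 FPKM at W6 and 0.0406 at W8, the latter from about 2.0 fragments, a ratio of 64.7 (95% counting interval 17.53 to 538). Hoxc5 was 4.60-fold lower (interval 2.42 to 9.35), Hoxc4 4.06-fold lower (interval 2.04 to 9.79), and Hoxc6 was listed at 0, where 3 fragments would be about 0.1201 FPKM. These intervals cover counting error only, and W6 and W8 are 1 library each. Markers of the forestomach squamous epithelium, listed after the values were seen, changed over the same timepoints. Of the 9, 3 rose from Ph1 to Ph2 (13.2% of all tested genes) and 2 fell from Ph2 to Ph3 (37.4%). The summed level of the 9 markers rose from 81.59 FPKM at E12.5 to 10614 at E17.5, was 14116 at D1 and 1594 at W6, and 23.8 at W8. Trp63, the master regulator of squamous basal cells, reached 22.1 FPKM at E17.5 and was at 0.739 at W6 and 0.0511 at W8, and the differentiation keratin Krt13 was at 5133, 273 and 5.96 FPKM at the same timepoints. Over the 15 timepoints, Trp63 was the gene most like Hoxc6 among 16901 others (Pearson's r of log2(FPKM + 1) = 0.98, a description over libraries that share one time course). The r of Trp63 with Hoxc4, Hoxc5 and Hoxc8 was 0.82, 0.90 and 0.56, at ranks 6166, 1614 and 2211 of their likeness lists. Genes of other clusters had r with Trp63 in the same range: 0.81 for Hoxd8, 0.74 for Hoxa7, 0.67 for Hoxa5 and 0.50 for Hoxd3. High r with Trp63 was thus not particular to HoxC. Hoxc8 was more like Krt13, with r = 0.94, whereas Hoxa5 and Krt13 had r = -0.03, and the gene most like Hoxc8 was Klk11, a kallikrein protease (r = 0.98). Within this parallel the ratio of Hoxc6 to Trp63 stayed between 0.326 and 0.647 from E12.5 to W6, while that of Hoxc8 to Trp63 was 0.0467 at E12.5, 0.543 at E17.5 and 3.56 at W6. The part of the amount of forestomach epithelium in the HoxC differences was not tested.

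**Figure D5:**
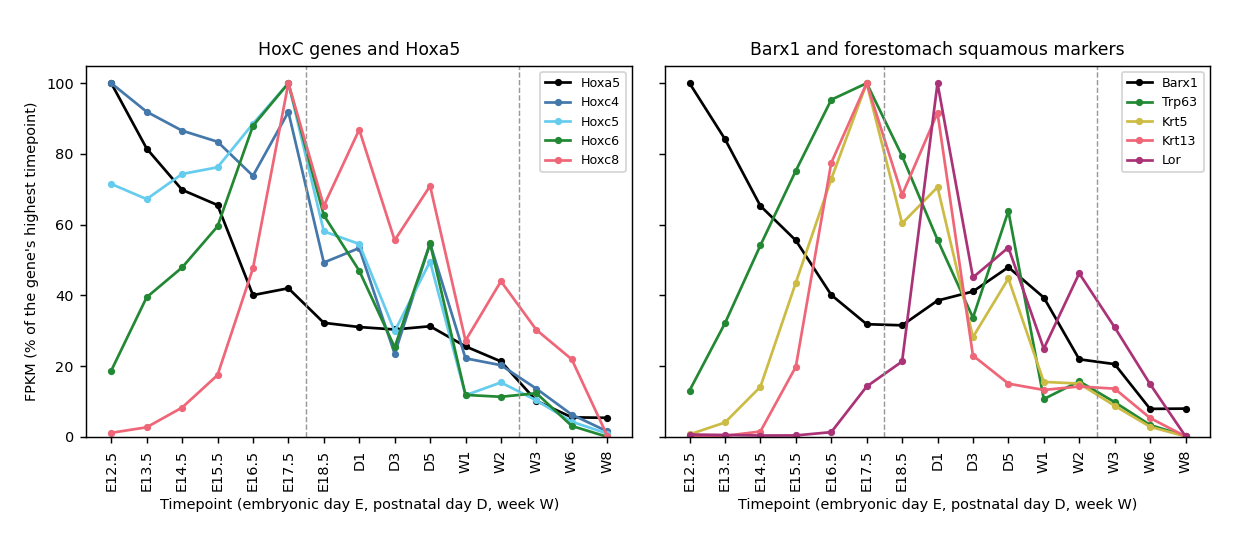
FPKM in percent of each gene's own highest timepoint, for the 4 HoxC genes and Hoxa5 (left) and for the mesenchyme gene Barx1 and 4 markers of forestomach squamous epithelium (right), 1 library per point; dashed lines mark the phase borders. Hoxa5 and Barx1 start at 100%, Hoxc5, Hoxc6, Hoxc8, Trp63, Krt5 and Krt13 peak at E17.5, and the HoxC genes and squamous markers are near 0% at W8.

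HoxD had the lowest sum of the 4 clusters at every timepoint but W8, where HoxC was lower. Hoxd3, which shapes the first neck vertebrae, was its highest member. Hoxd3 was at 11.51, 10.97, 11.9, 8.65, 5.83 and 1.95 FPKM from E12.5 to E17.5, at 2.21, 1.05, 1.54, 1.29, 0.809 and 0.478 FPKM from E18.5 to W2, and at 0.220, 0.0925 and 0.292 FPKM at W3, W6 and W8. It was level to E14.5 and was 2.995-fold lower at E17.5 than at E16.5 (95% counting interval 2.35 to 3.84), a step over which Hoxc8 rose 2.099-fold, and its log2 fold change to Ph2, -1.97 ± 0.31 (adjusted p = 1.73e-04), was the lowest of all members. That to Ph3 was -0.85 ± 0.38 (adjusted p = 0.0685). Hoxd8 was at 2.21, 3.52, 3.22, 3.33, 2.47 and 3.66 FPKM from E12.5 to E17.5, at 2.80, 1.68, 2.43, 2.84, 2.58 and 1.59 FPKM from E18.5 to W2, and at 1.25, 0.467 and 0.699 FPKM at W3, W6 and W8. Hoxd8 moved up and down within Ph1 and, like Hoxc5, Hoxc6 and Hoxc8, was highest at E17.5. Its level there was 1.66-fold higher than at E12.5 (95% counting interval 1.22 to 2.20). Its log2 fold change to Ph2, -0.30 ± 0.14 (adjusted p = 0.0799), missed the threshold. It fell to Ph3, with -0.88 ± 0.17 (adjusted p = 8.91e-04), a call lost after quantile normalization. Hoxd4 ranged from 2.95 FPKM at E12.5 to 0.230 at W6, and neither contrast passed the threshold (adjusted p = 0.0196 and 0.0507). Hoxd9, below the limit for testing, was highest at D3, where Hoxa9 and Hoxb9 were highest at E12.5, with 0.155 FPKM at E12.5, 0.467 at E17.5, 0.635 at D3, 0.488 at W3 and 0.163 at W8, resting on at most about 25.8 fragments.

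Paralogs were compared as the log2 ratio of their FPKM + 1 within each library, which removes most of a library's scale, in a test added after the values were seen. In 20 pairs within a paralog group and 2 comparisons, 40 exact two-sided permutation tests were made. After Benjamini-Hochberg adjustment over the 40 tests none was below 0.05, the lowest adjusted p being 0.1102. The smallest p of Ph2 against Ph3, 0.024, can pass only where 20 of the 40 tests are at or below it, so the result for that comparison says little. The ratio of Hoxb8 to Hoxc8 went from 2.01 ± 1.87 (SD, n = 6) in Ph1 to -0.22 ± 0.40 in Ph2 (exact permutation p = 0.0260, adjusted p = 0.1102). That of Hoxa3 to Hoxd3 went from 1.07 ± 0.42 to 1.91 ± 0.35 (n = 6 each, exact permutation p = 0.00649, adjusted p = 0.1102), the lowest unadjusted p of the 40. In the same comparison the ratio of Hoxa2 to Hoxb2 moved by -0.11, that of Hoxa4 to Hoxb4 by 0.05 and that of Hoxa7 to Hoxb7 by -0.02 on the log2 scale.

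Over the 15 timepoints, the 14 tested HoxA and HoxB genes were alike, with a median Pearson's r of log2(FPKM + 1) of 0.98 over 91 pairs (range 0.81 to 0.99). The points are libraries of one time course with a common trend, so r is given as a description. The median r with these 14 genes was 0.92 for Hoxc4, 0.88 for Hoxc5, 0.68 for Hoxc6 and -0.12 for Hoxc8, in the order of the genes along the cluster. It was 0.89 for Hoxd3, 0.88 for Hoxd4 and 0.83 for Hoxd8. Among all tested genes, the one most like Hoxb5 was Foxf1, a mesenchymal transcription factor of the gut (r = 0.99), the one most like Hoxa3 was the Hedgehog effector Gli2 (r = 0.995), and those most like Hoxc5 included the foregut factor Sox2 (r = 0.98).

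Genes that act with or on Hox genes were counted list by list on the deposited FPKM. Among all tested genes, 35.1% fell and 13.2% rose from Ph1 to Ph2, and 37.4% fell and 3.41% rose from Ph2 to Ph3. After birth 41.0% were lower and 11.3% higher. After median-ratio scaling 18.7% of all genes fell from Ph1 to Ph2 and 10.2% from Ph2 to Ph3, and list counts on that scale are not given here. All 9 cofactor genes were tested, and 8 fell from Ph1 to Ph2, 6 from Ph2 to Ph3, and 0 rose in either. Meis2 and Meis1, the highest of them, were at 96.7 and 81.9 FPKM at E12.5, 28.4 and 29.2 at E18.5, and 10.9 and 5.78 at W8. Meis1 fell in both comparisons, by log2 fold changes of -1.12 ± 0.21 (adjusted p = 4.88e-04) and -1.70 ± 0.26 (adjusted p = 2.04e-04), and Meis2 fell in the first, -1.27 ± 0.28 (adjusted p = 0.00135), and missed the threshold in the second, -1.14 ± 0.34 (adjusted p = 0.0110). Of 15 Polycomb genes, 10 fell from Ph1 to Ph2 and 9 from Ph2 to Ph3, and 10 were lower and 1 higher after birth than before. Ezh2, the main methyltransferase of histone H3 lysine 27, went from 58.8 FPKM at E12.5 to 6.37 at W8 and Phc2 from 73.1 to 27.8. Cbx7, a chromobox subunit, was higher after birth (0.57 ± 0.16, adjusted p = 0.00627), with 2.99 FPKM at E12.5 and 9.33 at W8. Of 7 Trithorax and related genes, 6 fell from Ph1 to Ph2 and 2 from Ph2 to Ph3. The second is a share no higher than that of all tested genes. The highest were Ash2l, at 46.0 FPKM at E12.5 and 12.7 at W8, and Men1, at 43.3 and 14.1.

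Of the ParaHox and Cdx genes, which carry related homeodomains, Pdx1 and Cdx2 were above 1 FPKM at some timepoint and the other 4 were not. Pdx1, the factor of antrum, duodenum and pancreas, was at 3.98 FPKM at E12.5, 0.835 at D1 and 5.24 at W3, and rose from Ph2 to Ph3, by 0.87 ± 0.20 (adjusted p = 0.00206) on the log2 scale, after both genes had fallen from Ph1 to Ph2. Cdx2, which sets intestinal identity, was at 1.26 FPKM at E12.5 and 0 to 0.235 FPKM from E17.5 on. Of 15 genes beside the clusters, 10 were tested. From Ph1 to Ph2, 2 fell (35.1% of all tested genes) and 1 rose (13.2%). From Ph2 to Ph3, 2 fell (37.4%) and 2 rose (3.41%). Hibadh, a valine breakdown enzyme next to HoxA, went up from 35.7 FPKM at E12.5 to 139.9 at W8 and rose in both comparisons, by 0.52 ± 0.13 (adjusted p = 0.00329) and 1.19 ± 0.16 (adjusted p = 1.14e-04), and Atp5g3, a subunit of ATP synthase next to HoxD, rose in the second, by 0.51 ± 0.14 (adjusted p = 0.00827). Evx1, beside the silent end of HoxA, reached 0.0703 FPKM, and Evx2, beside that of HoxD, was listed at 0 throughout.

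Besides the Hox genes, 26 other entries lay in or over the 4 clusters, of which 6 reached 1 FPKM and 13 were listed at 0 throughout, among them all 6 microRNA genes of the Mir10, Mir196 and Mir615 families and the noncoding RNAs Hotair and Hoxa11os. Per the study's methods, mRNA was isolated with oligo beads and fragmented, so the 0 of a microRNA entry does not show that the microRNA was absent. The 6 above 1 FPKM all lay among detected genes: 2700086A05Rik (chr6:52201124-52213597) was at 6.82 FPKM at E12.5 and 0.0736 at W8, and Hoxb5os (chr11:96290095-96312309) at 5.32 and 0.497 FPKM. LOC102632302, 5730596B20Rik and LOC102632461 were likewise highest at E12.5, at 5.39, 3.94 and 3.18 FPKM, and Mira was highest at E14.5, at 4.47 FPKM. Each of the 6 overlaps at least 1 Hox gene in the coordinates of the files, and 6 pairs of Hox genes with 10 members overlap each other, among them Hoxa3 with Hoxa4, Hoxa5 and Hoxa6, Hoxb3 with Hoxb4, and Hoxd3 with Hoxd4. Whether the counting used the strand is not given in the sources used here, so the division of fragments among overlapping entries is uncertain.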

How the data were processed

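RNA from whole stomachs was measured at 15 timepoints, 1 library each. The authors deposited 1 table per library that holds, for each gene entry, an FPKM value and its confidence bounds in FPKM. Per the methods, reads filtered with FastQC were mapped with HISAT2 and quantified with StringTie, and the RNA is said to come from liver where the labels say stomach; the submitters' processing notes name Bowtie 0.12.2 and GRCm38.p2, so which tool made the values is uncertain. Read depth is not stated; fragment numbers were estimated from the bounds by taking them as Poisson, up to 2263 for a member.

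Timepoints were assigned to phases by their age labels, and log2(FPKM + 1) of genes with a highest FPKM of at least 1 was tested with limma 3.58.1 (R 4.3.3) and called at a Benjamini-Hochberg adjusted p under 0.01; genes with a variance of 0 were offset by limma. In data simulated for Ph1 against Ph2 on 16902 genes, 192 of 200 changed genes were called. That count is not split by size of change. Recovery at the members' median log2 fold change from Ph1 to Ph2, -0.95, was not tested. Permutation tests and correlations used Python 3.11.15 and SciPy 1.17.1. The files hold 1 library per timepoint, so p-values measure the spread between timepoints. Alternatives were other pseudocounts, limits, scalings, phase borders and left-out libraries. Values were shown in full for the 16 members with the highest FPKM and for members whose course differed from their cluster, the others by range. Of the tested members, 1 is not reported here by itself. The members and lists were chosen with earlier results of these data known, and the list of forestomach markers was added after the values were seen.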

Additional observations from a re-analysis of the deposited data

Results flagged for a closer look

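In 52 sets of 6 timepoints (the 21 tested members, the summed level and the 4 cluster shares, in Ph1 and in Ph2), 4 held a timepoint far from the other 5 by Dixon's criterion, which chance alone flags in about 1 of 20. Hoxb3 was at 14.3 FPKM at D5, where the next highest timepoint of Ph2 was at 8.83. Hoxd4 was at 2.61 FPKM at D5 against 1.201 for the next. Hoxb4 was at 4.39 FPKM at W2, where the next lowest timepoint was at 7.04. The share of HoxD in the Hox sum was 2.91% at D1, where the next lowest was 3.70%. The cause was not tested in any of the 4.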

How the results depend on the processing

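Across the settings planned for the counts (pseudocounts, limits on low values, scalings, the first entry of a symbol and limma's trend option), each count of members that fell or differed stayed within 1.5 times its reported value. Over these settings, 42.7% to 74.9% of all tested genes differed, 18.7% to 37.9% fell from Ph1 to Ph2 and 7.87% to 41.4% from Ph2 to Ph3. After birth 20.7% to 43.8% were lower. Members higher in Ph2 than in Ph1 numbered 0 as reported and 1 (Hoxc8) both with E17.5 and with E16.5 and E17.5 placed in Ph2. With these borders 14.7% and 15.1% of all tested genes were called higher, against 13.2% as reported. Without D1, W3 and W8, chosen after seeing the data, members lower after birth numbered 10 rather than 19, with fewer samples. In that setting 29.4% rather than 41.0% of all tested genes were called lower after birth. With W6 alone in Ph3, calls between Ph2 and Ph3 are not counted, and the median log2 fold change of the members was -1.64 rather than -1.54. The mean Hox sum of Ph3 was 49.1 after median-ratio scaling and 54.5 after quantile normalization, against 33.3 FPKM. Leaving out 1 timepoint at a time gave 18 to 21 members that differed, 12 to 16 lower and 0 to 1 higher in Ph2 than in Ph1, 14 to 17 lower in Ph3 than in Ph2, 13 to 19 lower after birth, and 0 higher in Ph3 or after birth. Of the log2 fold changes of single members under other settings, 398 kept their side of the threshold, 18 lost it, 4 gained it and 0 changed direction; with 1 timepoint left out, 602 kept it, 15 lost it, 13 gained it and 0 changed direction. The cause was not tested. No paired analysis was possible because each timepoint has 1 library and replicate numbers only name timepoints. Depth limits the traces of groups 9 to 13 and the HoxC values at W8, which rest on few fragments.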
